A study of Mus musculus with 2 samples.

Results

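The genes described here are 10 members of the Notch pathway in the stromal cells of mouse bone marrow: the receptors Notch1, Notch2 and Notch3, the ligands Jag1 and Dll1, and the target or feedback genes Hes1, Hey1, Hey2, Heyl and Nrarp. They were chosen by name, as receptors, ligands and targets, out of 25289 genes in the deposited table, with earlier results of these data known. The cells came from crushed femurs, tibiae and pelvic bones of C56BL/6 mice (the strain as spelled in the labels) aged 8 to 16 weeks, with no genetic change or treatment given. They were digested with collagenase and dispase and sorted as CD31-CD45-Ter119-, that is, without the surface proteins of endothelial, blood and red cells, and their polyA RNA was read in inDrops droplets. The study has a single group with 2 samples; Stroma1 was read as 2 libraries and Stroma2 as 3. Nothing in the labels says whether they came from separate animals. The p-values below therefore rest only on the spread left among the class or bin sums of these 2 samples, with sample as a term.

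Notch is a receptor that is cut when a ligand on a neighbouring cell binds it. The freed inner part enters the nucleus, joins the DNA-binding protein Rbpj and turns on target genes, of which the Hes and Hey families encode repressors of transcription. In bone, Notch signalling is known to hold back the maturation of osteoblasts, and Notch3 is known as the receptor of pericytes and vascular smooth muscle.

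Each cell that passed the authors' filter carries a deposited class, of which there are 7. Pro-osteoblast held 42 cells in Stroma1 and 305 in Stroma2, Pre-osteoblast/chondrocyte 25 and 66, Osteoblast progenitor 144 and 260, Pre-adipocyte 66 and 145, Adipocyte progenitor 165 and 298, and MSC 502 and 815. Pro-chondrocyte held 4 and 10 cells and was not tested. The passing cells had 1658990 counts in Stroma1 and 3687913 in Stroma2, with medians of 1523.5 and 1324 counts per cell. Osteoblast markers took 21.2% and 21.0% of the counts in Pro-osteoblast, against 0.628% and 0.692% in MSC. A cell barcode occurred in more than 1 library of its sample for 499 of 2847 passing cells, and 12 barcodes occurred in both samples. The authors may have used some of these genes to draw the classes, in which case a class difference in them was built in.

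Levels are given as normalized CPM, the CPM of a gene in a class and sample after scaling of the totals by TMM, which sets the bulk of genes level between classes. The scaling matters most for Pro-osteoblast, whose TMM factors were 0.59 and 0.506 while the other classes had 0.993 to 1.25. Without it the median log2 difference of all genes between Pro-osteoblast and the mean of the other 5 classes shifted by -1.1, and 10.2% instead of 54.3% of its called genes were higher. In the passing cells Notch1 had 230 counts, Notch2 829, Notch3 1566, Jag1 284, Hes1 1370, Hey1 224 and Heyl 636. Dll1 with 15 counts, Hey2 with 38 and Nrarp with 7 did not pass the filter on low counts, so 7 of the 10 genes were among the 6229 tested. A gene was called where edgeR's quasi-likelihood test gave a Benjamini-Hochberg adjusted p under 0.05 over all genes tested.

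Because Notch1 and Notch3 shared their lowest class and Notch2 did not, the 250 bases before each receptor gene's start in RefSeq are shown, on GRCm38.p6. For Notch1 that start lies inside the longer GENCODE gene whose coordinates are given below, and the Notch2 window overlaps the GENCODE gene by 11 bases. Capitals mark matches of CACNAG, searched on both strands. TGGGAA, the core of the site read by Rbpj, was searched in the same way and had no match in any of the 3 windows.
Notch1 (chr2:26503823-26504072, minus strand): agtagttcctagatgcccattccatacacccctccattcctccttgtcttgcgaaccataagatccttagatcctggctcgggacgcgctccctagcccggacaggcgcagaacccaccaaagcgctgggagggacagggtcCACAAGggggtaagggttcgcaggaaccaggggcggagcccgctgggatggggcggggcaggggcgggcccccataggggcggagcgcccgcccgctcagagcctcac
Notch3 (chr17:32166891-32167140, minus strand): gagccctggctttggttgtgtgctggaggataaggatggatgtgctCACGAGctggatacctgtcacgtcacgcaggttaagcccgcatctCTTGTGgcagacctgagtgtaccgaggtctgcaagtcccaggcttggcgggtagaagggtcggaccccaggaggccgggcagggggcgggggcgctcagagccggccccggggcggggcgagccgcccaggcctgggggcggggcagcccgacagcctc
Notch2 (chr3:98013288-98013537, plus strand): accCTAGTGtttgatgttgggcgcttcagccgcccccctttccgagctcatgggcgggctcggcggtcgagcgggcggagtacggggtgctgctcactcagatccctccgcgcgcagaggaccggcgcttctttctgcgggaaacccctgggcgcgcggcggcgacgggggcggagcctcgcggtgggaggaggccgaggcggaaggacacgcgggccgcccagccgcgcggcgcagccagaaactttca
CACNAG, the pattern known as the N-box and bound by Hes proteins, occurred 1 time before Notch1, 2 times before Notch3 and 1 time before Notch2, against at least 1 match in 36.7% of 32851 promoters of the same length. TGGGAA occurred in 21.6% of them. The 3 windows held 66.0%, 68.8% and 72.0% G and C, against a median of 52.4%. Of the other genes, Hey2 had 1 TGGGAA, 207 bases before its start, and Nrarp had 2 CACNAG. Sequences were matched for 7 of the 10 genes. None was available for Hes1, Hey1 and Heyl, so these were not searched.

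Notch3 (GRCm38 chromosome 17, 32120820 to 32166852) was the receptor whose level differed most between classes. It stood at 18.1 and 10.9 normalized CPM in Pro-osteoblast (Stroma1 and Stroma2, in this order throughout) and at 113 and 111 in Pre-osteoblast/chondrocyte. It stood at 407 and 284 in Osteoblast progenitor, 396 and 431 in Pre-adipocyte, 400 and 397 in Adipocyte progenitor, and 343 and 372 in MSC. The last 4 classes lay between 284 and 431, and both samples of Pre-osteoblast/chondrocyte and of Pro-osteoblast lay below all of them. Notch3 was lower in Pre-osteoblast/chondrocyte than in Osteoblast progenitor by a log2 difference of -1.60 (SE 0.33, adjusted p = 0.000215, edgeR). It was lower again in Pro-osteoblast than in Pre-osteoblast/chondrocyte, by -3.22 (SE 0.57, adjusted p = 5.89e-06), and in Pro-osteoblast than in MSC by -4.91 (SE 0.34, adjusted p = 7.65e-23), or -4.26 without Stroma2. Among the 4 classes with high Notch3 no neighbouring pair in the order of levels passed the test.

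Notch1 (chromosome 2, 26457903 to 26516663), the receptor best known for its part in T cell development, had no count in Stroma1 and 3 counts, or 4.09 normalized CPM, in Stroma2 of Pro-osteoblast. It stood at 32.2 and 47.4 in Pre-osteoblast/chondrocyte, 58.6 and 40.2 in Osteoblast progenitor, 72.7 and 41.2 in Pre-adipocyte, 43.2 and 77.2 in Adipocyte progenitor, and 56.1 and 45.1 in MSC. Those 5 classes overlapped, and Pro-osteoblast lay below all of them. With 3 counts against 109, Pro-osteoblast had 0.0715 times the Notch1 of MSC on the TMM scale (exact 95% interval 0.0145 to 0.214, for counting error only), and edgeR called the difference (adjusted p = 2.19e-06). No neighbouring pair among the other 5 classes passed.

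Notch2 (chromosome 3, 98013527 to 98150361) followed another order. It stood at 118 and 136 normalized CPM in Pro-osteoblast, 129 and 142 in Pre-osteoblast/chondrocyte, 134 and 129 in Osteoblast progenitor, 40.4 and 124 in Pre-adipocyte, 115 and 156 in Adipocyte progenitor, and 207 and 185 in MSC. Both MSC samples lay above all others, while the other 5 classes overlapped. Notch2 was lower in Pre-adipocyte than in MSC by -1.14 (SE 0.31, adjusted p = 0.00682), a value of -2.37 without Stroma2, since Stroma1 had only 5 counts there. In Pro-osteoblast it was lower than in MSC by -0.66 (SE 0.25, adjusted p = 0.0285), a call lost with DESeq2 (adjusted p = 0.07) and with no filter on low counts (adjusted p = 0.0634), and -0.10 (SE 0.23, adjusted p = 0.784) from the mean of the other 5 classes. The last value depends on the scaling: it was -1.21 (adjusted p = 8.76e-06) without TMM, where the median of all genes shifts by the -1.1 given above.

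**Figure D1:**
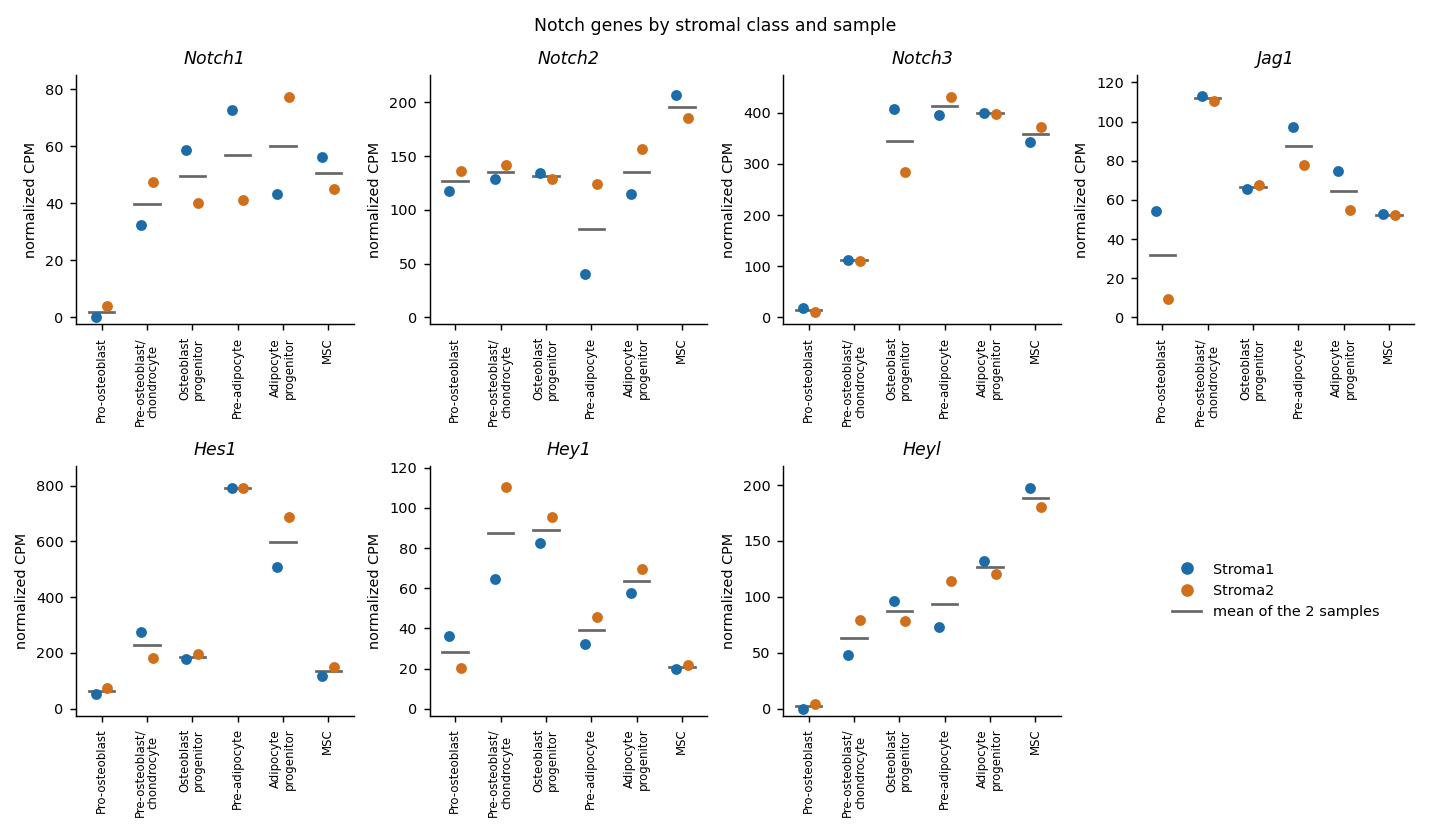
Level of the 7 tested genes in normalized CPM (vertical axis, own scale for each gene) in 6 stromal classes, with a point for each of the 2 samples and a line for their mean. Notch1, Notch3 and Heyl are lowest in Pro-osteoblast in both samples, Hes1 is highest in Pre-adipocyte and Adipocyte progenitor, and Notch2 and Heyl are highest in MSC.

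Of the ligands, Jag1 (chromosome 2, 137081456 to 137116644), which binds Notch from the surface of a neighbouring cell, stood at 54.3 and 9.53 normalized CPM in Pro-osteoblast and at 113 and 111 in Pre-osteoblast/chondrocyte. It stood at 65.5 and 67.7 in Osteoblast progenitor, 97.0 and 77.9 in Pre-adipocyte, 74.8 and 54.6 in Adipocyte progenitor, and 52.8 and 52.2 in MSC. Both Pre-osteoblast/chondrocyte samples lay above all others, but the difference from MSC of 1.09 (SE 0.45, adjusted p = 0.0876) did not pass. Pro-osteoblast was called lower than MSC by -1.63 (SE 0.48, adjusted p = 0.00376), although Stroma1 of Pro-osteoblast lay above both MSC samples. The value was -0.01 without Stroma2 and -2.56 without Stroma1, so that 1 sample decides it.

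Dll1 (chromosome 17, 15367354 to 15376872), the other ligand, had 15 counts in 11 passing cells, and no class had more than 5. The floor of 3 counts per class corresponds to between 1.37 normalized CPM in MSC and 15.9 in Pre-osteoblast/chondrocyte, so class differences in Dll1 were not detectable at this depth. The further ligands Dll4 and Jag2 and the receptor Notch4 were as scarce, with at most 4, 1 and 7 counts in any class, and Dlk1, a Delta-like membrane protein, had at most 3.

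Hes1 (chromosome 16, 30064384 to 30067796), a repressor of transcription and a common Notch target, stood at 54.3 and 73.5 normalized CPM in Pro-osteoblast, 274 and 182 in Pre-osteoblast/chondrocyte, and 179 and 195 in Osteoblast progenitor. It reached 792 and 793 in Pre-adipocyte and 509 and 687 in Adipocyte progenitor, against 118 and 150 in MSC. The 2 adipocyte-side classes lay above every other class in both samples and Pro-osteoblast below every other. Hes1 was higher than in MSC by 2.53 in Pre-adipocyte (SE 0.19, adjusted p = 5.86e-20) and by 2.14 in Adipocyte progenitor (SE 0.18, adjusted p = 1.24e-17), and lower by -1.05 in Pro-osteoblast (SE 0.26, adjusted p = 0.000468). The difference of 0.39 between Pre-adipocyte and Adipocyte progenitor did not pass (adjusted p = 0.301). Over the 5 libraries Hes1 ranged from 581 to 949 CPM of raw totals in Pre-adipocyte and from 110 to 234 in MSC. The libraries come from the 2 samples and are not further replicates.

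Hey1 (chromosome 3, 8663359 to 8667256), a related repressor, had a different profile. It stood at 36.2 and 20.4 normalized CPM in Pro-osteoblast, 64.5 and 111 in Pre-osteoblast/chondrocyte, 82.7 and 95.2 in Osteoblast progenitor, 32.3 and 45.8 in Pre-adipocyte, and 57.6 and 69.7 in Adipocyte progenitor, against 19.8 and 21.8 in MSC. Pro-osteoblast overlapped MSC, and both samples of the other 4 classes lay above MSC. Against MSC it was higher by 2.12 in Pre-osteoblast/chondrocyte (SE 0.52, adjusted p = 0.00132), by 2.08 in Osteoblast progenitor (SE 0.38, adjusted p = 1.76e-05) and by 1.59 in Adipocyte progenitor (SE 0.39, adjusted p = 0.00319). Hey1 was lower in Pro-osteoblast than in Pre-osteoblast/chondrocyte by -2.08 (SE 0.58, adjusted p = 0.00546), or -0.85 without Stroma2. With classes rebuilt from nearest neighbours the calls ended for Pre-osteoblast/chondrocyte (0.31, adjusted p = 0.829) and Adipocyte progenitor (0.82, adjusted p = 0.471) against MSC. The rebuilding left out the Notch genes and the early-response genes described below, and 75.0% of cells kept their class. These were 220 of 463 Adipocyte progenitor, 173 of 404 Osteoblast progenitor, 122 of 211 Pre-adipocyte and 57 of 91 Pre-osteoblast/chondrocyte cells. In MSC 1213 of 1317 and in Pro-osteoblast 347 of 347 cells kept it.

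Heyl (chromosome 4, 123233556 to 123249875), another repressor of the Hey family, ran the other way. It had no count in Stroma1 and 3 counts, or 4.09 normalized CPM, in Stroma2 of Pro-osteoblast. It stood at 48.4 and 79.0 in Pre-osteoblast/chondrocyte, 96.5 and 78.3 in Osteoblast progenitor, 72.7 and 115 in Pre-adipocyte, 132 and 121 in Adipocyte progenitor, and 197 and 181 in MSC. Both MSC samples lay above all others and Pro-osteoblast below all others. Pro-osteoblast had 0.019 times the Heyl of MSC on the TMM scale, from 3 counts against 411 (exact 95% interval 0.00389 to 0.0558; edgeR adjusted p = 6.02e-17). Heyl was lower than in MSC by -1.47 in Pre-osteoblast/chondrocyte (SE 0.42, adjusted p = 0.0059), by -1.13 in Osteoblast progenitor (SE 0.27, adjusted p = 0.00157) and by -0.96 in Pre-adipocyte (SE 0.32, adjusted p = 0.035). The last 2 calls ended with classes rebuilt from nearest neighbours (-0.75, adjusted p = 0.123, and -0.43, adjusted p = 0.486), and the call in Pre-adipocyte also with DESeq2 (adjusted p = 0.14). In Adipocyte progenitor the difference of -0.59 did not pass (adjusted p = 0.242).

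Hey2 (chromosome 10, 30832359 to 30842801) had 38 counts, 21 of them in MSC, and Nrarp (chromosome 2, 25180758 to 25183339), which encodes a feedback inhibitor of the Notch complex, had 7 counts in 6 cells. Neither could be compared between classes. In Pro-chondrocyte, with 16113 counts in all, Notch2 had 5 and 4 counts, Hes1 0 and 13 and Hey1 0 and 1. The other 7 genes had none there, which allows up to 229 CPM each (exact Poisson, 95%).

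Set against MSC, 6 of the 7 tested genes were called lower and 0 higher in Pro-osteoblast, where 38.6% of all tested genes were called, 19.9% higher and 18.7% lower. The 7 genes had a median of -1.63 there, against 0.01 over all genes. DESeq2 called 5 of the 7, without Notch2, and 1 sample decides the Jag1 call, as given above. By edgeR, 1 of the 7 was higher and 2 lower in Pre-osteoblast/chondrocyte (18% of all genes called, 9.36% higher and 8.62% lower). In Osteoblast progenitor 1 was higher and 1 lower (7.93%, 4.62% higher and 3.31% lower), and in Pre-adipocyte 1 was higher and 2 lower (10.3%, 8.48% higher and 1.86% lower). In Adipocyte progenitor 2 were higher and 0 lower (4.17%, 3.95% higher and 0.225% lower). Between Pre-adipocyte and Adipocyte progenitor 0 of the 7 were called by edgeR or by DESeq2, and 1, Hes1, had an unadjusted p under 0.05 in edgeR (4.96% of all genes called).

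**Figure D2:**
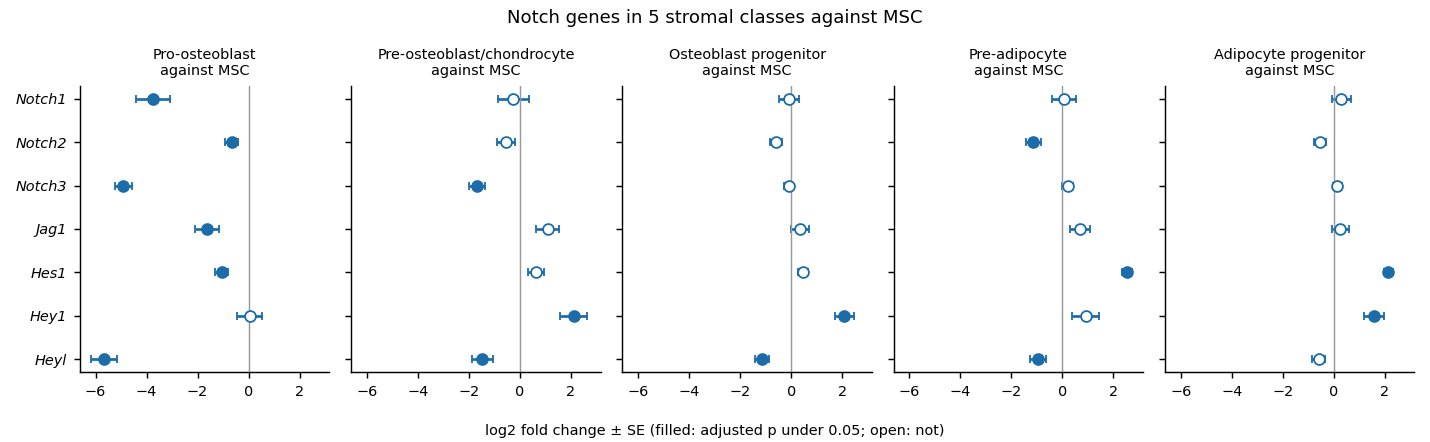
Log2 fold change of each tested gene in 5 classes against MSC, with bars of 1 SE and filled points for an adjusted p under 0.05 (edgeR). Notch1, Notch3 and Heyl lie at -3.75 or lower in Pro-osteoblast, where Notch1 and Heyl rest on 3 counts each, Hes1 above 2 in Pre-adipocyte and Adipocyte progenitor, and Hey1 above 2 in Pre-osteoblast/chondrocyte and Osteoblast progenitor.

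Set against the mean of the other 5 classes, 6 of 7 genes were lower in Pro-osteoblast (39.3% of all genes called, 21.4% higher and 17.9% lower) and 0 of 7 were called in Pre-osteoblast/chondrocyte (12.2%, 6.92% higher and 5.23% lower). In Osteoblast progenitor 2 were higher (9.15%, 5.99% higher and 3.16% lower), in Pre-adipocyte 2 (20.7%, 14.5% higher and 6.21% lower) and in Adipocyte progenitor 4 (15.4%, 11.4% higher and 4.01% lower). In MSC 3 were higher and 2 lower (20.6%, 11.2% higher and 9.46% lower). The count in Pro-osteoblast leaves out Pro-chondrocyte, where 7 of the 10 genes had no count, and it depends on this. With that class in the fit and in the mean only Hes1 was called (-2.26, adjusted p = 1.63e-16, edgeR), and Hey1 at -1.15 was not (adjusted p = 0.111). Notch3 at -3.00, Heyl at -3.44, Notch1 at -2.55 and Jag1 at -0.81 were not called either. They had 0 counts in both samples of Pro-chondrocyte, so a log mean that holds this class cannot be estimated for them. That fit therefore cannot decide their calls. Over all genes it called 1644 of 5590 in Pro-osteoblast, 1315 of them higher. For each other class, the mean of the other 5 classes contains Pro-osteoblast, where Notch1, Notch3 and Heyl are almost absent, and several calls rest on it. Without Pro-osteoblast in the mean, Notch3 was no longer called in Osteoblast progenitor (0.25, adjusted p = 0.532, against 1.16) or in MSC (0.36, adjusted p = 0.108, against 1.27). Heyl and Notch1 were no longer called in Adipocyte progenitor (0.29 and 0.36, against 1.25 and 1.10). In all, 5 of the 13 calls in classes other than Pro-osteoblast were lost with this mean, those named here among them. Leaving out Stroma2 gave Heyl 2.11 in Adipocyte progenitor and 2.81 in MSC (1.96 with both samples), and Hey1 -0.37 in Pro-osteoblast (-1.30 with both). Jag1 was -0.55 in Pro-osteoblast without Stroma2 (-2.10 with both), and Hes1 2.17 in Pre-adipocyte and 1.42 in Adipocyte progenitor. With 1 sample left these are values with no test. In Pre-osteoblast/chondrocyte, where 3 genes had an unadjusted p under 0.05 in edgeR and DESeq2 called 0, Hey1 at 1.19 (adjusted p = 0.073) and Jag1 at 1.16 (adjusted p = 0.0613) missed the threshold.

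The authors also placed the passing cells on 3 paths, with a pseudotime from 0 to 1 on each. The slope per unit of pseudotime was tested over 5 equal bins. The authors may have used some of these genes to order the cells, in which case a slope in them was built in. The bins hold the same cells as the classes, so the slopes are not independent of the class results. The paths share their early cells, which are MSC: bin 1 was 100% MSC on each path in both samples, so the slopes are not independent of each other. Bin 5 held Adipocyte progenitor and Pre-adipocyte on the adipocyte path, mostly Osteoblast progenitor and Pre-osteoblast/chondrocyte on the chondrocyte path, and 84.0% and 90.2% Pro-osteoblast on the osteoblast path. On the adipocyte path 2 of the 7 genes rose and 2 fell, where 11.3% of 5904 genes were called, 8.4% rising and 2.95% falling. On the osteoblast path 0 rose and 2 fell (16.6% of 5709 genes, 10.4% rising and 6.22% falling). On the chondrocyte path 2 rose and 2 fell (14.6% of 5596 genes, 7.97% rising and 6.59% falling).

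Hes1 stood in the adipocyte path at 78.6 and 125 normalized CPM in bin 1, 138 and 100 in bin 2, 175 and 241 in bin 3, 487 and 680 in bin 4, and 840 and 943 in bin 5. It rose there by 4.39 log2 units per unit of pseudotime (SE 0.32, adjusted p = 5.43e-11). On the chondrocyte path Hes1 reached 275 and 282 in bin 5 and rose by 1.94 (SE 0.32, adjusted p = 8.41e-05). On the osteoblast path it was 74.7 and 112 in bin 1, 176 and 177 in bin 4 and 65.5 and 81.0 in bin 5, with a slope of 0.20 that did not pass (SE 0.59, adjusted p = 0.859).

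Hey1 rose by 4.52 on the chondrocyte path (SE 0.54, adjusted p = 1.24e-06), where it stood at 15.4 and 10.7 in bin 1, 27.2 and 26.5 in bin 3, 54.6 and 69.4 in bin 4, and 135 and 132 in bin 5. On the adipocyte path it rose by 3.20 (SE 0.64, adjusted p = 0.000808). The slope was 4.10 without Stroma1 and 2.04 without Stroma2, as bin 5 held 38.4 in Stroma1 and 87.3 in Stroma2. On the osteoblast path Hey1 was 12.4 and 8.63 in bin 1, 82.1 and 109 in bin 4, and 49.1 and 28.7 in bin 5, highest in bin 4 in both samples. Its slope of 3.05 there (SE 1.02, adjusted p = 0.0589) missed the threshold, and it passed with DESeq2 (adjusted p = 0.0101), 3 bins (0.014), 10 bins (0.0121) or without sample as a term, the replicate block (0.0434).

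Heyl fell on all 3 paths. On the osteoblast path it stood at 187 and 268 in bin 1, 133 and 89.7 in bin 4, and 8.19 and 7.84 in bin 5, and fell by 3.66 (SE 0.98, adjusted p = 0.0231), a call lost without TMM (-4.31, adjusted p = 0.0672). The slope was -4.45 without Stroma1 and -2.72 without Stroma2. On the chondrocyte path it fell by 1.59 (SE 0.37, adjusted p = 0.00303) and on the adipocyte path by 1.11 (SE 0.32, adjusted p = 0.021). Notch2 fell on all 3 as well, by 1.41 on the adipocyte path (SE 0.31, adjusted p = 0.00266), 1.17 on the osteoblast path (SE 0.37, adjusted p = 0.0492) and 0.98 on the chondrocyte path (SE 0.29, adjusted p = 0.0199). The osteoblast call was lost with 3 bins (adjusted p = 0.118), and the chondrocyte call with DESeq2 (adjusted p = 0.0532).

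Notch3 stayed between 324 and 449 normalized CPM over bins 1 to 4 of the osteoblast path in both samples, and was at 40.9 and 13.1 in bin 5. A straight slope describes such a profile poorly (-2.37, SE 1.30, adjusted p = 0.235), whereas bin 5 against bin 1 gave -4.33 (adjusted p = 4.65e-18). By the same comparison Notch1 was lower in bin 5 by -2.90 (adjusted p = 0.000401) and Jag1 by -1.53 (adjusted p = 0.0135). The fall of Jag1 lay in Stroma2: it stood at 62.2 and 63.3 in bin 1 and at 57.3 and 13.1 in bin 5. On the adipocyte and chondrocyte paths the Notch3 slopes of 0.22 and -0.25 did not pass, nor did those of Notch1 and Jag1.

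**Figure D3:**
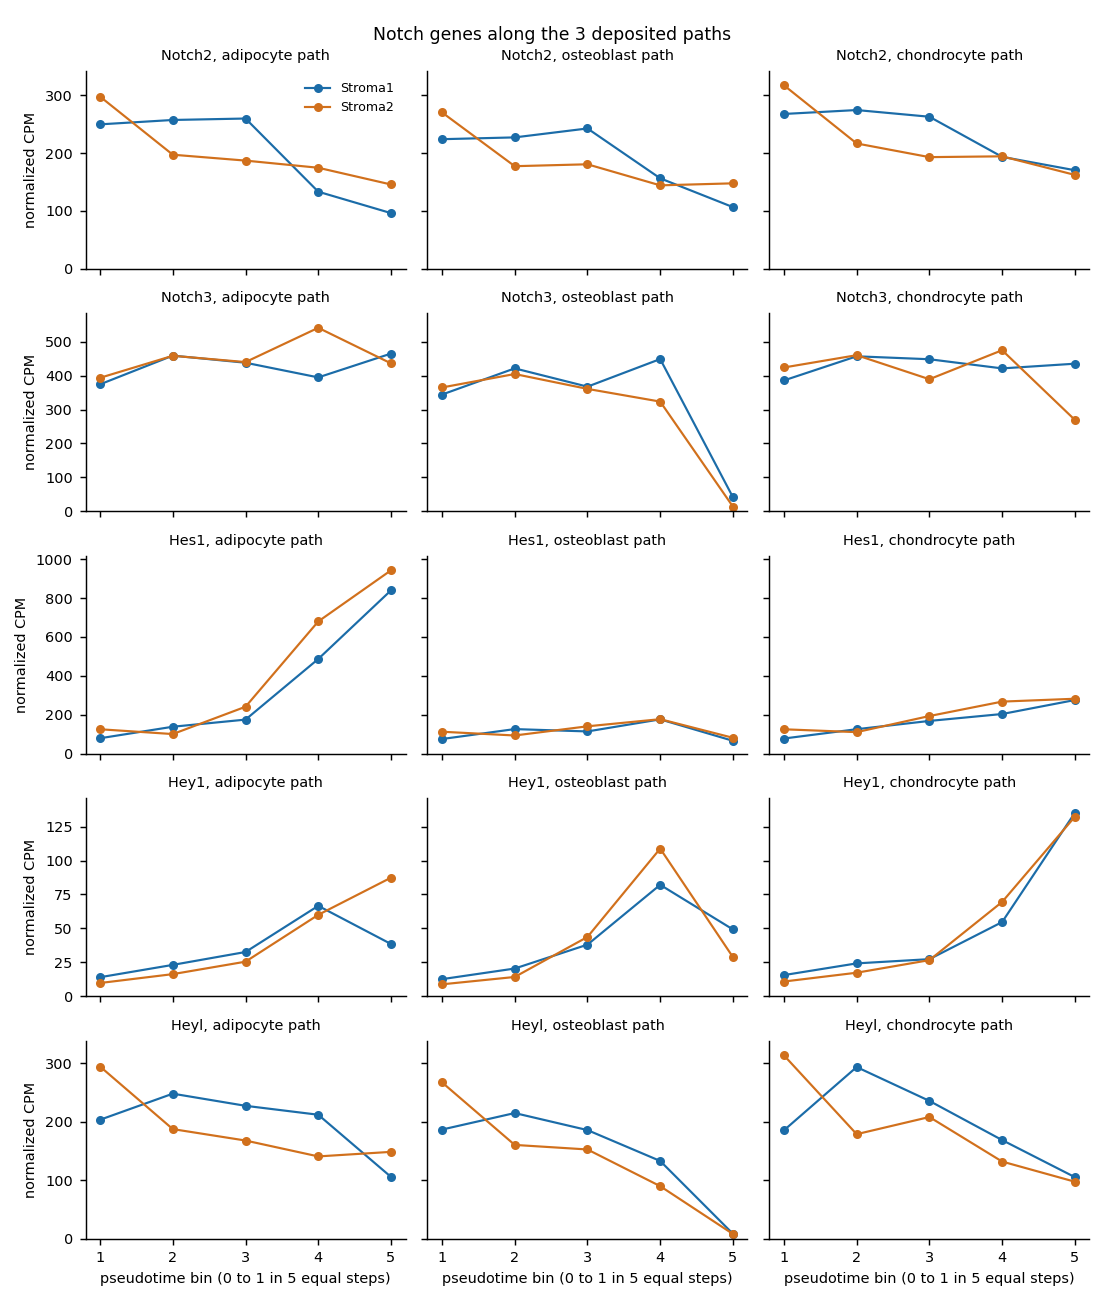
Level of 5 genes in normalized CPM (vertical axis) in 5 equal bins of the deposited pseudotime (horizontal axis) on the adipocyte, osteoblast and chondrocyte paths, with a line for each sample. Notch3 lies at 324 or above in bins 1 to 4 of the osteoblast path and at 40.9 and 13.1 in bin 5; Hey1 climbs to 135 and 132 at the end of the chondrocyte path, and Hes1 to 840 and 943 at the end of the adipocyte path.

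Early-response genes, which cells switch on quickly after a stimulus, were high in the same classes as Hes1. The 19 early-response genes took 0.203% and 0.165% of the counts in Pro-osteoblast, 1.04% and 1.29% in Pre-osteoblast/chondrocyte, 0.662% and 0.834% in Osteoblast progenitor, 6.35% and 6.25% in Pre-adipocyte, 4.02% and 4.04% in Adipocyte progenitor, and 0.811% and 0.845% in MSC. All 19, a list chosen with earlier results of these data known, were called higher in Pre-adipocyte and in Adipocyte progenitor than in MSC. Of all genes tested, 8.48% and 3.95% were called higher there. The 19 had medians of 3.68 and 2.51, against -0.05 and 0.01 over all genes. On the adipocyte path their share was 0.524% and 0.415% in bin 1 and 5.66% in both samples in bin 5. All 19 of 19 rose on that path, where 8.4% of all genes tested were called rising. The part of the 19 early-response genes in the Hes1 result was not tested. The genes whose profile over the 12 class and sample sums was most like Hes1 (Pearson r of log2(CPM + 10), raw totals) were Egr1 (0.983), Fos (0.978) and Socs3 (0.975), all 3 of that list; the points share libraries and depth, so r is a description.

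**Figure D4:**
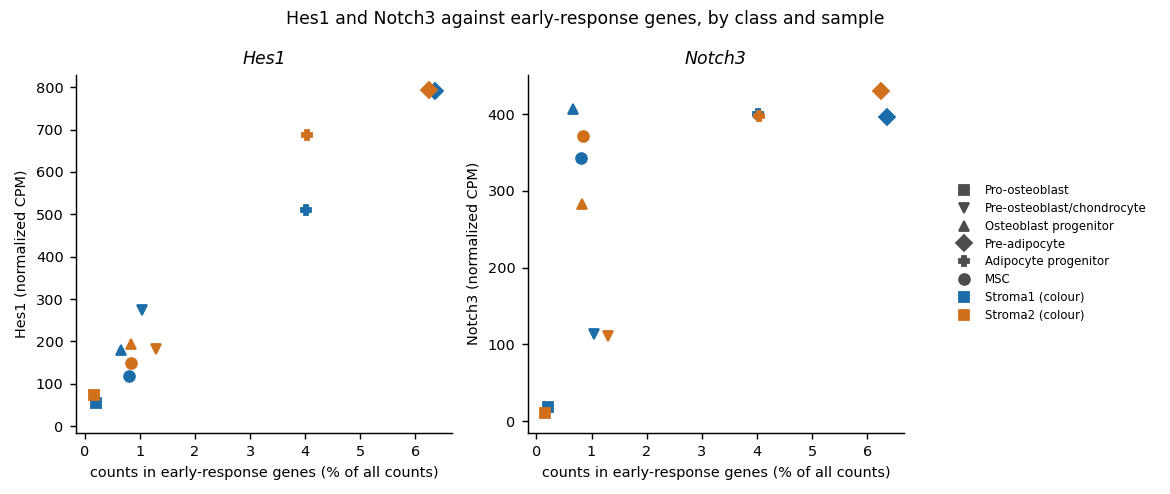
Normalized CPM of Hes1 (left) and Notch3 (right) against the share of all counts in 19 early-response genes, in percent, with a point for each class and sample. Hes1 is highest where that share is 4.02% or more; Notch3 has 284 to 431 normalized CPM both there and in MSC and Osteoblast progenitor, where the share is under 1%.

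By the same measure the profiles most like Notch3 were those of Tgfbr3 (0.994), Clu (0.994) and Igfbp7 (0.993), and those most like Heyl were Ackr4 (0.990), Foxp1 (0.980) and Il6st (0.978). Notch1 was most like Plac8, Tmbim6 and Ifitm3 (0.972 to 0.974), Notch2 most like Ctcf, Il17rd and Psmc2 (0.930 to 0.931), Jag1 most like Pkd2, Kpna4 and Enah (0.951 to 0.967), and Hey1 most like Wif1, Caprin1 and Nrep (0.910 to 0.930). Among the Notch genes themselves, Notch3 was close to Heyl (0.946) and Notch1 (0.940), while Notch2 and Hes1 (0.105) had the least alike profiles.

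Of 55 further genes of the Notch pathway in the table, 34 were tested in the class comparison. Against the mean of the other 5 classes 4 were higher and 4 lower in Pro-osteoblast (39.3% of all genes called), 0 and 3 in Pre-osteoblast/chondrocyte (12.2%) and 0 and 0 in Osteoblast progenitor (9.15%). In Pre-adipocyte 4 were higher and 2 lower (20.7%), in Adipocyte progenitor 3 and 0 (15.4%), and in MSC 4 and 1 (20.6%). Their medians lay between -0.17 and 0.14. In Osteoblast progenitor 6 of them had an unadjusted p under 0.05 in edgeR, and DESeq2 called 0. Rbpj, the DNA-binding partner of cut Notch, had 0 and 23 counts in Pro-osteoblast (0 and 31.3 normalized CPM) and 0 and 3 counts in Pre-osteoblast/chondrocyte. It stood at 68.9 and 65.6 in Osteoblast progenitor, 145 and 128 in Pre-adipocyte, 118 and 126 in Adipocyte progenitor, and 130 and 110 in MSC. Rbpj was lower in Pro-osteoblast than in MSC by -2.23 (SE 0.38, adjusted p = 7.52e-07), and it fell along the osteoblast path by 2.44 (SE 0.57, adjusted p = 0.0119) and along the chondrocyte path by 1.63 (SE 0.37, adjusted p = 0.00263). Rbpj has pseudogene copies, between which the authors' counting could have split reads.

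Tle1, a corepressor that works with Hes proteins, was higher in Pre-adipocyte than in the mean of the other classes by 2.43 (SE 0.35, adjusted p = 1.3e-08), with 154 and 202 normalized CPM against 71.5 and 105 in MSC. Against MSC alone the difference was 0.99 (SE 0.32, adjusted p = 0.0282), which DESeq2 did not call, while the mean holds Pro-osteoblast with 9 counts of Tle1 and Pre-osteoblast/chondrocyte with 1. Tle1 was lower in Pro-osteoblast by -2.52 (SE 0.74, adjusted p = 0.00407). Ncstn, a subunit of the gamma-secretase that cuts Notch, was lower in Pre-osteoblast/chondrocyte by -2.52 (SE 0.56, adjusted p = 0.000494) and fell along the osteoblast path by 1.39 and the chondrocyte path by 1.37. Lfng, which adds sugars to Notch, had 1 count in Pro-osteoblast and 73 in MSC, where it was higher than the mean of the other classes by 1.59 (adjusted p = 0.0101). Of the single classes, Osteoblast progenitor (-0.30, adjusted p = 0.867), Pre-adipocyte (-0.08, adjusted p = 0.967) and Adipocyte progenitor (-0.32, adjusted p = 0.938) were not called against MSC, whereas Pro-osteoblast was (-4.66, adjusted p = 5.29e-05). In Pre-adipocyte the corepressor Ctbp1 was lower by -1.33 and the acetyltransferase Kat2b higher by 1.11, though neither passed against MSC alone (adjusted p = 0.0756 and 0.119). Dtx3l was lower in Pro-osteoblast by -2.73, the coactivator Maml3 was lower in MSC by -1.60 (called against Pro-osteoblast and Pre-osteoblast/chondrocyte singly, not against the other 3), and Aes, a corepressor related to Tle1, rose along the chondrocyte path by 1.10.

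The share of cells with at least 1 count was taken after each cell was thinned to 500 counts, because Pro-osteoblast had a median of 4287 counts per cell and MSC 1261. The intervals here count the cells of both samples together. They cover counting error only, leave out the spread between samples and are no test between classes. Notch3 was then seen in 0.288% of Pro-osteoblast cells (exact 95% interval 0.0073 to 1.60), 5.49% of Pre-osteoblast/chondrocyte (1.81 to 12.4) and 16.3% to 19% of the other 4 classes. Barcodes outside the filter with red cell genes, which should lack Notch3, gave 0.137% (0.00348 to 0.763). The intervals overlap, but shares this small rest on too few cells to tell Pro-osteoblast from those barcodes. Without thinning, Notch3 stood at 10.7 and 5.51 CPM of raw totals in Pro-osteoblast, from 10 counts, and at 4.41 and 1.41 in the red cell barcodes, from 12. That difference was not tested. Hes1 was seen in 24.2% of Pre-adipocyte (18.6 to 30.5), 25.7% of Adipocyte progenitor (21.8 to 29.9), 1.73% of Pro-osteoblast (0.637 to 3.73) and 6.53% of MSC (5.26 to 8.00), against 0.275% of the red cell barcodes. Before thinning Notch3 was in 1.44% of Pro-osteoblast and 39.3% of MSC cells, and Hes1 in 50.3% of Adipocyte progenitor and 14.4% of MSC cells.

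The sort removes endothelial cells by CD31 but has no marker that removes pericytes or smooth muscle. The 10 endothelial genes summed to at most 52.6 CPM in any class and sample, with Cdh5 at 0 in Pre-osteoblast/chondrocyte and Osteoblast progenitor. The 10 pericyte and smooth muscle genes summed to 46.9 to 344 CPM, highest in Pre-osteoblast/chondrocyte (344 and 251) and Osteoblast progenitor (339 and 270), against 149 and 124 in MSC. Myh11, Tagln and Cnn1 were at 0 in Pro-osteoblast and Pre-osteoblast/chondrocyte. The part of such cells in the Notch3 result was not tested.

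Outside the authors' filter 3765 barcodes had at least 500 counts, and some held the markers of vessel cells; they were grouped by a marker rule chosen after the values were seen. In the 8 and 4 barcodes with pericyte and smooth muscle genes Notch3 stood at 3190 and 4160 CPM of raw totals, from 42 and 41 counts, and all 12 had a count. In the 98 and 106 barcodes with endothelial genes Notch3 had 0 and 2 counts, while Notch1 stood at 200 and 172, Dll1 at 107 and 86.1 and Nrarp at 121 and 164. Of the 3 genes too scarce to test, Nrarp had 96.2% and Dll1 65.9% of all its counts outside the filter, but Hey2 had 7.32%, against 10.2% for Notch3 and 9.31% for Hey1. Most counts of all genes also lay outside. The 728 erythroid barcodes had 5131131 and the 2071 in no marker group 3943066, against 1658990 and 3687913 in the passing cells. The share of Dll1 alone therefore shows no excess outside the filter. No test was made on these barcodes.

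**Figure D5:**
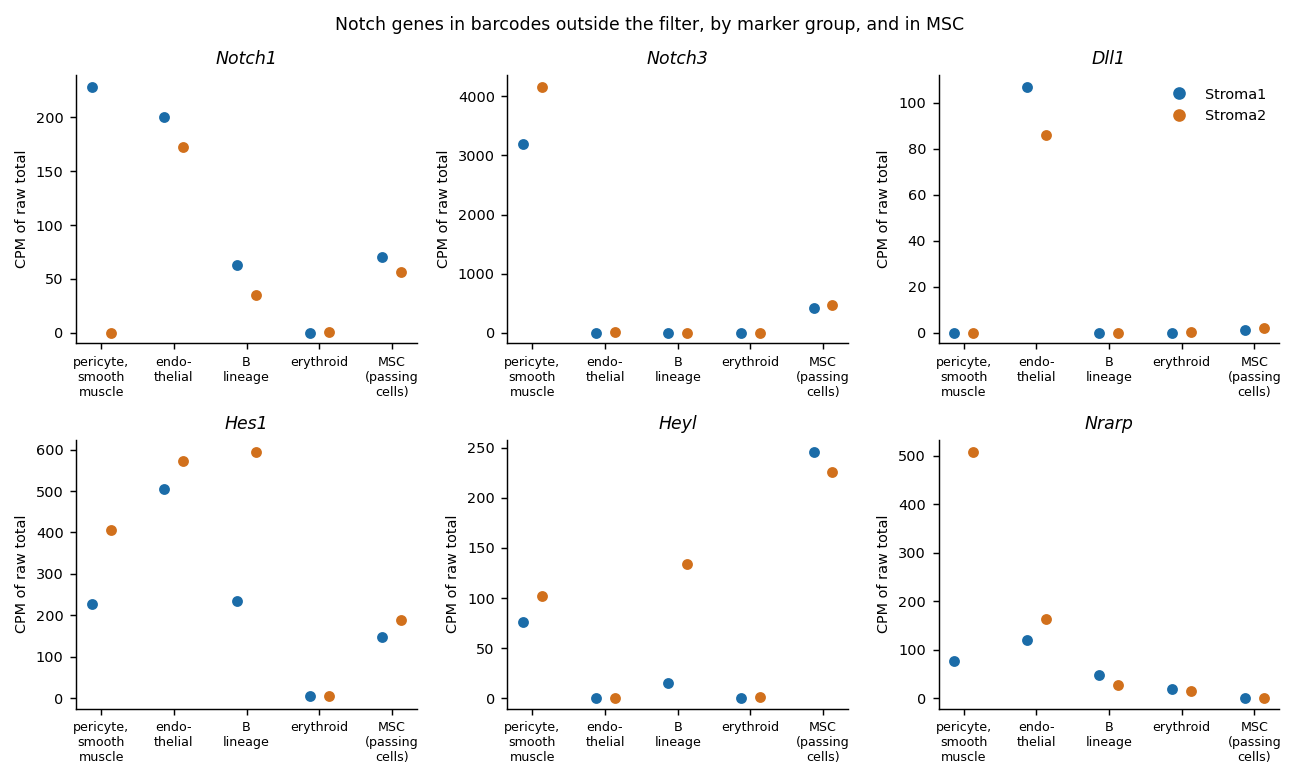
CPM of raw totals (vertical axis) of 6 genes in barcodes outside the authors' filter, grouped by the marker genes they hold, and in MSC, with a point for each sample. Notch3 stands at 3190 and 4160 in the pericyte and smooth muscle group, which is 12 barcodes, and Dll1 at 107 and 86.1 in the endothelial group.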

How the data were processed

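Stromal cells of 2 samples (5 inDrops libraries) were measured by single-cell RNA sequencing. The deposited table holds raw counts per gene and barcode; Bowtie 1.1.1 and GRCm38 are named in the submitters' processing notes, while neither the counter nor the treatment of molecular identifiers or doublets is stated there. The deposited fraction of mitochondrial counts per barcode is the authors' and was only summarised. Cell class, filter and pseudotime (a score from 0 to 1) are the authors' deposited labels. No doublet caller was run.

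Counts of passing cells were summed per sample and class, for classes with at least 15 cells in each sample, and tested with edgeR 4.0.16 (R 4.3.3) by quasi-likelihood with TMM, filterByExpr with a minimum count of 10, and class and sample as terms; the Benjamini-Hochberg adjustment ran over all genes tested. Paths were fitted over 5 bins with sample as a term. SE is the log2 value over the square root of F. Total counts per sum ranged from 55218 to 1450797; exact intervals cover counting error only. The script was checked on simulated counts. Alternatives included DESeq2 1.42.0, no TMM, no filter, each sample left out, each barcode once, libraries as units and classes by 15 nearest neighbours; those for comparisons with MSC, and fits without sample as a term, were chosen after seeing the data.

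The members and gene lists were chosen with earlier results of these data known. Named genes are the members, the 3 genes most alike to each, and, per class or path, up to 4 called pathway genes with the largest change in the same direction in both samples, plus Rbpj and the untested receptor and ligands.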

Additional observations from a re-analysis of the deposited data

Results flagged for a closer look

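Signal for these genes also lay in barcodes outside the authors' filter, which no test used. As CPM of raw totals over both samples, Notch3 stood at 3600 in the 12 barcodes with pericyte and smooth muscle genes. In the 204 with endothelial genes Notch1 stood at 187, Dll1 at 97.0 and Nrarp at 142. Nrarp stood at 31.9 in the 425 barcodes with B lineage genes and at 16.0 in the 728 with erythroid genes. The barcodes were grouped by genes of the same libraries, and the groups were not tested. Groups of 2 samples are too small for a search for outlying samples.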

How the results depend on the processing

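Of 461 values tested under other settings, 416 kept their direction and side of the threshold, 27 lost the call, 10 gained one and 8 changed sign. Leaving out a sample leaves 1 per class and no test: of 118 such values 116 kept their direction, 27 of them moving by over 1.5 times, and 2 changed sign. The count of Notch genes called against the mean of the other classes went to 1 in Pro-osteoblast with Pro-chondrocyte in the fit (6 in the report). That fit cannot test Notch1, Notch3, Jag1 or Heyl, which had no count in Pro-chondrocyte. In Pre-osteoblast/chondrocyte the count went to 2 without TMM and to 1 with each barcode once, libraries as units, nearest-neighbour classes, Pro-chondrocyte in the fit or the mean without Pro-osteoblast (0 in the report). It went to 1 in Osteoblast progenitor and 2 in Adipocyte progenitor with the mean without Pro-osteoblast, and to 4 in Pre-adipocyte and 3 in MSC with nearest-neighbour classes. Those classes gave 1 call against MSC in both Osteoblast progenitor and Adipocyte progenitor. On the osteoblast path 1 gene was called without TMM and 5 with the last bin against the first (2 in the report). Signs changed for Notch2 in Pro-osteoblast against the other classes (0.05 without Stroma2, -0.18 without Stroma1) and for Hes1 along the osteoblast path (-0.55 without TMM, -0.38 for the last bin against the first). Hey1 in Pro-osteoblast against MSC was -0.05 with DESeq2, -1.21 without TMM (adjusted p = 0.0218), -0.0 with no filter, -0.23 without Stroma1 (0.81 without Stroma2), -0.52 with each barcode once, -0.04 with libraries as units and -0.38 with nearest-neighbour classes. The cause was not tested. Over all genes, calls against the mean of the other classes went to 426 against 959 in Adipocyte progenitor with the mean without Pro-osteoblast, to 490 against 757 in Pre-osteoblast/chondrocyte with Pro-chondrocyte in the fit, and without TMM to 2131 against 1285 in MSC, 1115 against 570 in Osteoblast progenitor and 4016 against 2449 in Pro-osteoblast. On the osteoblast path 950 calls became 2138 with the last bin against the first, 491 without TMM and 1510 with no filter. Without TMM the share of called genes that were higher was 85.8% against 54.2% in MSC, 92.5% against 65.4% in Osteoblast progenitor, 88.7% against 73.9% in Adipocyte progenitor, 68.1% against 56.9% in Pre-osteoblast/chondrocyte, and 43.0% against 74.0% and 34.2% against 62.6% on the adipocyte and osteoblast paths. Classes and bins were compared within each sample by a replicate block, since sample was a term in each fit; without the block, tried after seeing the data, the values kept their calls except Hey1 along the osteoblast path (3.02, adjusted p = 0.0434). Pre-osteoblast/chondrocyte, with 174942 counts, limits its tests most.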
